A study of Mus musculus with 24 samples.

Results

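Otx2, Fgf5, Pou3f1 and Lef1 are 4 mouse genes that are used as marks of the formative state, the stage of pluripotency that follows the naive state around implantation. They were examined here in embryonic stem cells that had not been taken out of self-renewing culture. The genes were chosen by name, and every row of 6 deposited peak lists that overlapped the window of one of them was kept. A window is the gene with about 5 kb on either side, on the mm10 build, except that the Otx2 window reaches to 48675000, further than that before the outermost start of the gene at 48667644. This gave 204 of the 1811308 regions in the lists, namely 35 at Otx2, 30 at Fgf5, 18 at Pou3f1 and 121 at Lef1.

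The lists come from chromatin immunoprecipitation with sequencing (ChIP-seq) in E14 mouse embryonic stem cells cultured in serum and LIF. All 6 libraries are labelled Control and carry the genotype given as Nelfb deg. By that label the cells used as controls also hold the tagged, degradable NELFB. The headers of the SPT5 peak lists call those libraries wt, so for SPT5 the genotype is not settled. Antibodies were directed at the HA tag on NELFB, at NELFE and at DSIF (libraries titled SPT5), with 2 libraries each. The labels do not say whether same-antibody libraries were separate cultures, so their spread may be technical, and the p-values below measure that spread alone. The other 18 samples of the series, among them those treated with dTAG-13 and those of the naive and EpiLC states, are not analysed here. The lists hold no RNA values, so whether the 4 genes were silent or transcribed in these cells was not measured.

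NELF and DSIF bind RNA polymerase II shortly after it begins transcription and hold it in a paused state close to the start of many genes. NELF leaves on release of the polymerase, while DSIF travels on with it along the gene. Otx2 and Pou3f1 (also called Oct6) encode homeodomain transcription factors that are induced as cells leave the naive state. Fgf5 encodes a secreted growth factor widely used as a marker of the early post-implantation epiblast, and Lef1 encodes a transcription factor that acts with beta-catenin downstream of Wnt signals. ChIP-seq of a culture is a mean over its cells, so fewer occupied cells and less factor per cell cannot be told apart.

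Each region carries the authors' own values. The pileup is the mean number of extended ChIP tags over the region, and the fold enrichment is the ratio to the local input. The q-value is a corrected p-value, deposited as the average of −log10 q across the region. A header line states that q was left out, and the deposited values are used as they stand. Pileups depend on the depth of a library, so a region is placed by its rank by pileup within its own list. A region with a q-value of 0.01 or less is called strong here. Strong regions made up 2.97% and 1.85% of the NELFB:HA lists, 5.52% and 5.42% of the NELFE lists and 1.51% and 6.08% of the SPT5 lists. The libraries held 27324697 to 62312558 tags, and the lists 137102 to 462153 regions. All regions of a list together covered 151.3 to 553.7 Mb. The share of all gene starts under a region of any strength was not counted, so a covered start has no background here. The SPT5 libraries had longer reads than the NELF ones (100 and 101 against 50 bp). Both SPT5 libraries shared 1 input and are called wt in their headers. For SPT5 the antibody therefore cannot be told apart from these features of the libraries.

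The cell label was set against genes of pluripotent cells. Of Pou5f1, Sox2, Nanog, Klf4, Esrrb and Zfp42, 5 of 6 held a strong region in all 6 libraries, and Nanog did so in 5. These are regions anywhere in the gene window. At an annotated start, Nanog held one in 2 libraries and Esrrb in 0. Of Alb, Ins2 and Cd3e, which are specific to liver, pancreas and T cells, none of 3 held a strong region in any library. Over all coding genes with 5 kb margins, 33.5% held one in all 6 libraries and 44.6% in none, so an absence at 3 genes says little. The lists therefore do not go against the labelled cell type at these genes.

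The 4 genes divided by where they held strong regions. Otx2 held one in all 6 libraries, Lef1 in 5, Pou3f1 in 1 and Fgf5 in 0. In all, 20 of the 204 regions were strong, with 11 at Otx2, 8 at Lef1 and 1 at Pou3f1. Over all 21883 coding genes with 5 kb margins, 33.5% held a strong region in all 6 libraries and 44.6% in none, so each of these outcomes is common among coding genes. The merged strong regions formed 5 sites, of which 2 were at Otx2, 2 at Lef1 and 1 at Pou3f1.

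**Figure D1:**
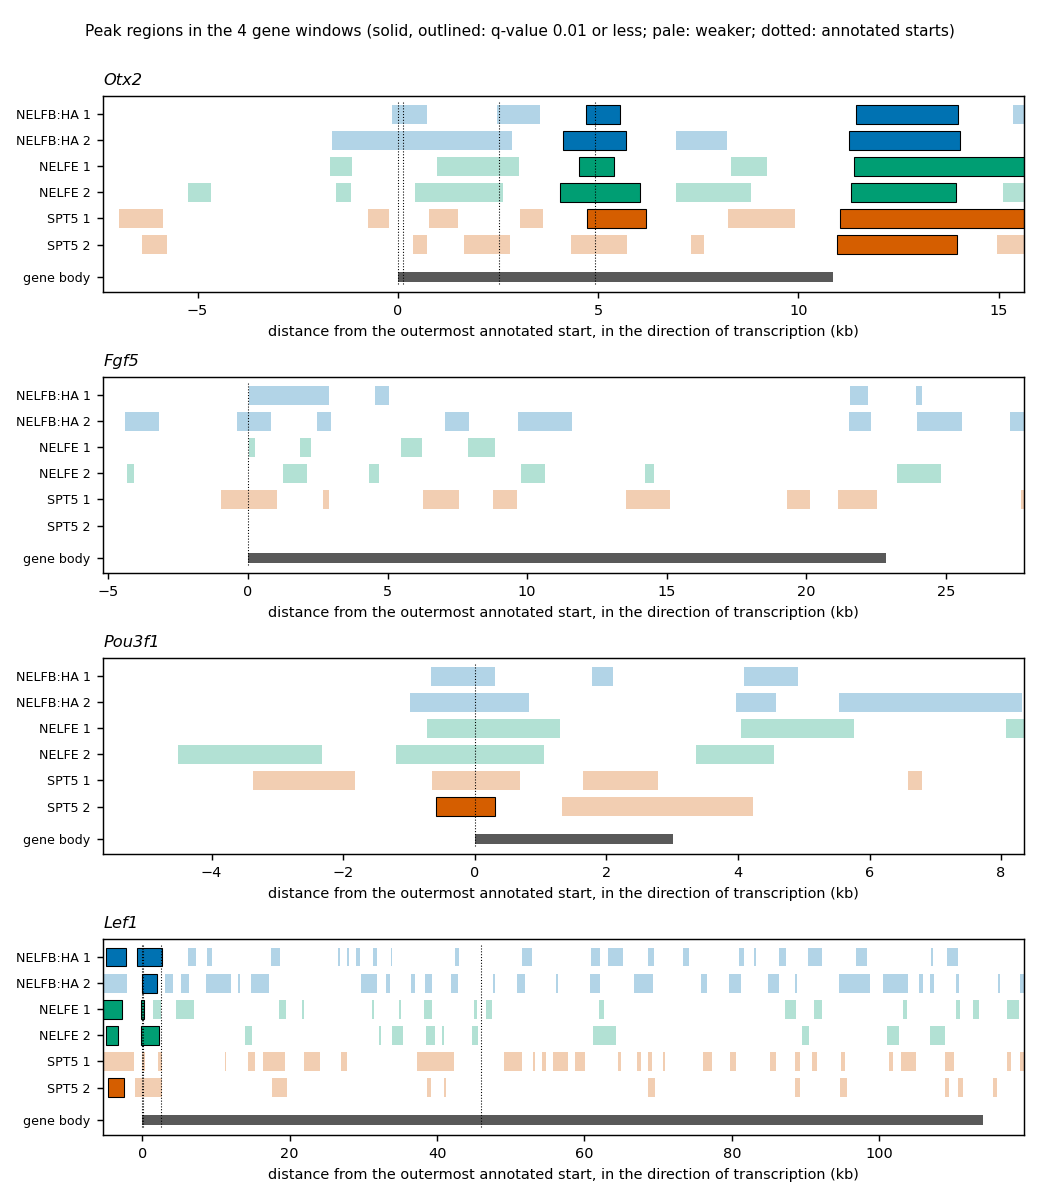
Map of the peak regions in each window, 1 row per library, against the distance in kb from the outermost annotated start in the direction of transcription; outlined solid bars are regions with a q-value of 0.01 or less, pale bars are weaker regions, dotted lines are annotated starts and the grey bar is the gene body. Strong regions stand at an internal start and beyond the end of Otx2, at and before the start of Lef1, at the start of Pou3f1 in 1 library, and nowhere in the Fgf5 window.

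Otx2 (gene 18424) lies on the minus strand of chromosome 14 from 48656781 to 48667644 and has 4 annotated starts, at 48667644, 48667508, 48665109 and 48662734. Strong regions of all 3 antibodies lay at the most internal of these starts and in a stretch just past the end of the gene, and none lay at the outermost starts. The region over the internal start was strong in 5 of 6 libraries, and that beyond the gene end in 6 of 6. The promoter stretch before the internal start and that before the outermost start are shown because strong regions covered the one and not the other. They are the 250 bases before each start on the minus strand, from RefSeq on GRCm38.p6, at chr14:48662735-48662984 and chr14:48667645-48667894. Capitals mark matches to the motifs searched on both strands. These were the TATA box (TATAAA), the CCAAT box (CCAAT), the GC box (GGGCGG), the octamer bound by POU factors (ATGCAAAT), a core site of TCF and LEF factors (CTTTGAT) and an OTX homeodomain site (TAATCC), none of which contains another.
Otx2 internal start: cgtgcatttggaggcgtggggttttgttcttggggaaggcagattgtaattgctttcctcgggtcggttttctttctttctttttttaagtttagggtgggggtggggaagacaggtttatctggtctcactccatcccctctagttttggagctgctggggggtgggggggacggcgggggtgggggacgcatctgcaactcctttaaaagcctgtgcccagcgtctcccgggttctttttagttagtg
Otx2 outermost start: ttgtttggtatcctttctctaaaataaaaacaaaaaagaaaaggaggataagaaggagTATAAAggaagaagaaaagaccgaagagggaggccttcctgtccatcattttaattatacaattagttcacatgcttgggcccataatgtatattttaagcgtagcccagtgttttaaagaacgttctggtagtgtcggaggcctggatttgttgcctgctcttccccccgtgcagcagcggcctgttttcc

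The internal stretch held no match to any of these motifs. The outermost held 1 TATAAA, whose first base lies 192 bases before the start, and 12.4% of all 32851 promoter stretches of this length hold TATAAA on either strand. The internal stretch had 9 CpG dinucleotides and 53.6% G and C, and the outermost had 6 CpG and 42.0%, against medians of 6 and 52.4% over all promoter stretches. The letters are a description of the sequence and locate no bound factor.

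At the internal start the NELFB:HA libraries had regions at chr14:48662097-48662938 and chr14:48661942-48663519. Their fold enrichments were 3.49 and 3.19, and they ranked 7693 and 6568 by pileup in their lists. In NELFE the regions were chr14:48662260-48663123, with a fold of 3.75 and rank 8117, and chr14:48661600-48663592, with a fold of 4.43 and rank 6804. All 4 NELF regions cover the start itself and were strong, and they were 842, 1578, 864 and 1993 bp long. In SPT5 the regions were chr14:48661443-48662930, with a fold of 2.66 and rank 6837, and chr14:48661929-48663314, with a fold of 2.21 and rank 8881. The second SPT5 region missed the threshold, with a −log10 q-value of 1.69 where 2 is needed. These regions stood in the top 1.47% to 6.48% of their lists by pileup. Of the strong regions of the same lists, 8.06% to 42.4% had a lower pileup, so the site stood in the lower part of that class.

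Beyond the gene end, strong regions reached to within 96 to 581 bp of the last annotated base. No annotated gene of the reference table overlaps this stretch. The NELFB:HA regions were chr14:48653670-48656200 and chr14:48653613-48656380, with folds of 3.15 and 2.65 and ranks of 7967 and 7752. The NELFE regions were chr14:48651644-48656260 and chr14:48653700-48656335, with folds of 2.68 and 3.59 and ranks of 10063 and 7595. The SPT5 regions were chr14:48651111-48656608 and chr14:48653672-48656685, with folds of 2.45 and 2.28 and ranks of 6135 and 5952. All 6 were strong, and they were longer than the regions over the internal start in every library, at 2531 to 5498 bp against 842 to 1993 bp.

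The 2 Otx2 sites can be set against each other within a library, a comparison chosen after the values were seen. The pileup beyond the gene end divided by that at the internal start was 0.966 and 0.876 in NELFB:HA, 0.792 and 0.895 in NELFE, and 1.06 and 1.26 in SPT5. All 4 NELF libraries thus had the higher pileup at the start and both SPT5 libraries the higher pileup past the end. This split holds for pileup and not for fold. The first SPT5 library had a fold of 2.45 past the end against 2.66 at the start, and the second 2.28 against 2.21. The pileup is a mean over regions of unequal length, which is part of these ratios, and no test was run on them.

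The remaining Otx2 starts carried weak regions or none. At 48665109 a region covered the start in 5 of 6 libraries, with folds of 1.71 to 2.51 and none strong. The starts at 48667508 and 48667644 were covered in both NELFB:HA libraries, with folds of 1.53 and 1.83, and in no NELFE or SPT5 library. One NELFB:HA region there was 4477 bp long, reached over 3 starts and ranked 53234 of 447756. The nearest strong region outside the window lay 204 to 205 kb away within Tmem260 in 5 libraries, and 61.2 kb away, in no annotated gene, in the first NELFE library.

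**Figure D2:**
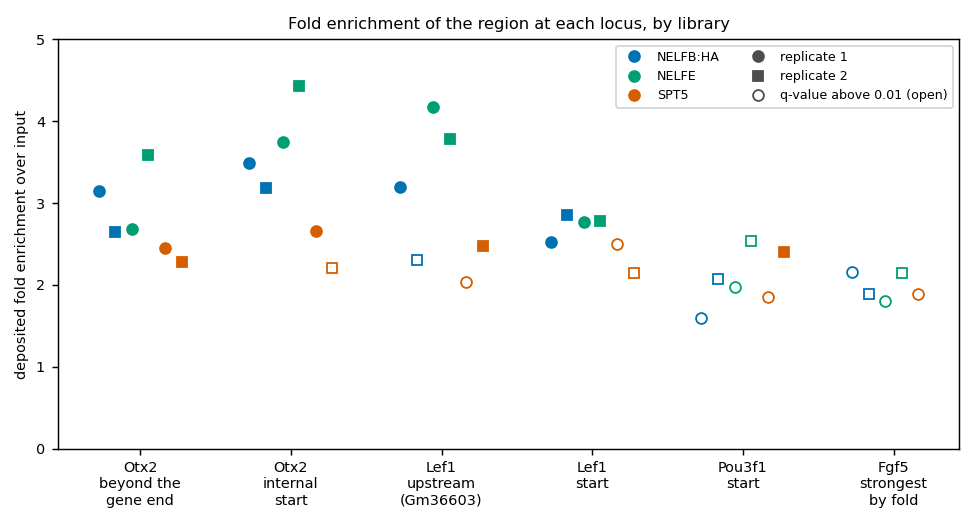
Deposited fold enrichment over input (vertical axis, no unit) of the region with the highest fold at each of the 5 sites and in the Fgf5 window, 1 point per library (circles replicate 1, squares replicate 2); filled points have a q-value of 0.01 or less. The internal Otx2 start reaches 4.43 and the site before Lef1 4.18, both in NELFE, and no Fgf5 point exceeds 2.16; folds of different antibodies have different inputs and are not a measure of relative occupancy.

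Lef1 (gene 16842) lies on the plus strand of chromosome 3 from 131110297 to 131224357. Regions covered its outermost start in all 6 libraries, and a second site lay before the gene, over a neighbouring noncoding gene. The start region was strong in all 4 NELF libraries and in neither SPT5 library. The 250 bases before the start, chr3:131110047-131110296 on the plus strand (RefSeq, GRCm38.p6), are shown as the stretch that these regions reach into.
Lef1 outermost start: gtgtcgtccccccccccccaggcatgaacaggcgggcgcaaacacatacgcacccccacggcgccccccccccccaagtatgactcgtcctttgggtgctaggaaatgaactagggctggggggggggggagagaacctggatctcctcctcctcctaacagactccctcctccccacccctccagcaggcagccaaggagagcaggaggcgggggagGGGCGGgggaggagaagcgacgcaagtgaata

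Capitals mark the single motif match, a GGGCGG that begins 32 bases before the start, and 32.7% of all promoter stretches hold one on either strand. The stretch had 11 CpG and 66.4% G and C.

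The NELFB:HA regions at the Lef1 start were chr3:131109587-131112975 and chr3:131110216-131112318. Their folds were 2.52 and 2.86 and their ranks 9656 and 8039. The NELFE regions were chr3:131110120-131110579, with a fold of 2.77 and rank 9268, and chr3:131110115-131112509, with a fold of 2.78 and rank 11183. All of these reached further after the start than before it, by 282 to 2678 bp against 81 to 710 bp. The SPT5 regions were chr3:131110205-131110603, with a fold of 2.5 and rank 6661, and chr3:131109283-131112920, with a fold of 2.15 and rank 10951. Their −log10 q-values were 1.54 and 1.21, against 2.64 to 3.5 in the NELF libraries. By pileup the SPT5 regions stood in the top 1.44% and 7.99% of their lists, and the NELF regions in the top 1.80% to 5.15%. Of the strong regions of the same lists, 15.7% and 2.07% had a lower pileup in SPT5, against 10.2% to 19.2% in NELF. The split between NELF and SPT5 at this start thus rests on the q-value threshold, and the first SPT5 region was not set apart by pileup.

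The site before Lef1 overlaps Gm36603, a long noncoding RNA gene on the minus strand at chr3:131101639-131107978, so it cannot be given to Lef1 by position alone. Its regions ended 1084 to 3253 bp before the Lef1 start. In NELFB:HA they were chr3:131105346-131108132, with a fold of 3.2 and rank 8435, and chr3:131100512-131108165, with a fold of 2.30 and rank 12266. The second was 7654 bp long and just missed the strong class, with a −log10 q-value of 1.97. In NELFE they were chr3:131104803-131107558 and chr3:131105375-131107044, both strong, with folds of 4.18 and 3.78 and ranks of 5513 and 8600. In SPT5 they were chr3:131104964-131109213, which was not strong with a fold of 2.04 and rank 11780, and chr3:131105573-131107773, which was strong with a fold of 2.48 and rank 7992. The regions covered the annotated Gm36603 start at 131107978, and so ran past that gene toward Lef1, in 3 of 6 libraries. The site was thus strong in 4 libraries, at least 1 of each antibody.

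For Lef1 the choice of site therefore decided the leading region, the one with the highest pileup in the window. It was the Gm36603 site in 4 libraries and the Lef1 start in the second NELFB:HA and the first SPT5 library. Past these sites the body of Lef1 held weak regions alone. Weak regions of the whole Lef1 window had folds of 1.44 to 2.5. The start at 131112791 was covered in 4 of 6 libraries and by a strong region in 1, the long NELFB:HA region that also covers the outermost start. The start at 131156294 was covered in 0 of 6.

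Pou3f1 (gene 18991) lies on chromosome 4 from 124657646 to 124660655 and is transcribed from the lower coordinate. A region covered its start in all 6 libraries, the leading region of the window by pileup in each, and it was strong in 1. As the lists hold many weak regions and no share over all starts was counted, coverage alone is not a result about Pou3f1. The NELFB:HA regions were chr4:124656986-124657951 and chr4:124656659-124658473, with folds of 1.59 and 2.07. The median fold of the first NELFB:HA list was 1.64, and another region of the window led by fold there, at 1.84. The NELFE regions were chr4:124656915-124658947 and chr4:124656452-124658696, with folds of 1.97 and 2.54. The SPT5 regions were chr4:124656991-124658331 and chr4:124657057-124657953, with folds of 1.85 and 2.40. The last, from the deepest library, was the strong one, with a −log10 q-value of 2.49 against 0.0425 to 1.29 in the other 5.

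By pileup these regions ranked 11326 and 11231 in NELFB:HA, 13476 and 19313 in NELFE, and 21255 and 8466 in SPT5. They stood in the top 2.51% to 8.90% of their lists. Of the strong regions of the same lists, however, only 0% to 10.2% had a lower pileup, so the site lay at the bottom of that class or below it. Rank by fold was far lower in places. The first NELFB:HA region had a pileup of 16.18 and rank 11326 by pileup, but rank 228207 of 343503 by fold. The gene's neighbour Gm2164, a long noncoding RNA gene, ends just before the Pou3f1 start, at 124657487, and all 6 regions reach into it. Pou3f1 had no entry among the promoter sequences.

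Fgf5 (gene 14176) lies on the plus strand of chromosome 5 from 98254184 to 98277033, and none of its 30 regions was strong. The second SPT5 list, the one from the deepest library, had no region in the 33 kb window at all. Of end-to-end tiles as long as this window, 37.2% were empty in that list. In the other 5 lists the window held 4 to 8 regions, with folds of 1.5 to 2.16 and a highest −log10 q-value of 0.430. The promoter stretch at chr5:98253934-98254183 (plus strand, RefSeq, GRCm38.p6) is shown as the counterpart that no strong region covered.
Fgf5 start: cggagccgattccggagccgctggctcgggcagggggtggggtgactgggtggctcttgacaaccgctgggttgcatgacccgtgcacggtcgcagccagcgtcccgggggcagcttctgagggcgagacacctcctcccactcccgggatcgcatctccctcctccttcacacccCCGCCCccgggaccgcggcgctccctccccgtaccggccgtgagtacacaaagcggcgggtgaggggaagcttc

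Capitals mark CCGCCC, the GGGCGG motif on the other strand, which begins 74 bases before the start. This stretch had 24 CpG dinucleotides, more than 88.0% of promoter stretches, and 70.8% G and C. Among the stretches printed here, the one with the most CpG thus lay at the gene with no strong region.

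At the Fgf5 start itself a region was called in 2 libraries. These were chr5:98253784-98255023 in the second NELFB:HA library, with a fold of 1.68 and rank 158665 of 447756, and chr5:98253218-98255217 in the first SPT5 library, with a fold of 1.73 and rank 187930 of 462153. In the first NELFB:HA and first NELFE libraries the nearest region began 26 and 27 bp after the start. The leading regions of the window did not recur at one place, lying 27 to 27294 bp from the start in the 5 libraries. The nearest strong region was 313 kb away within Antxr2 in 3 libraries, 970 kb away within Rasgef1b in 2 and 856 kb away in the second SPT5 library.

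The strong covered length, the number of base pairs of a window under strong regions, was compared between antibodies to ask whether the factors differ in extent. At Otx2 it was 3373 and 4346 bp in NELFB:HA, 5125 and 4629 bp in NELFE and 6097 and 3014 bp in SPT5. NELFE thus lay above NELFB:HA without overlap, and SPT5 spanned both. At Lef1 it was 6176 and 2103 bp in NELFB:HA, 3019 and 4065 bp in NELFE, and 0 and 2201 bp in SPT5. NELFE lay above SPT5 without overlap, and NELFB:HA overlapped the others. At Pou3f1 it was 897 bp in the second SPT5 library and 0 elsewhere, and at Fgf5 it was 0 in all 6.

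**Figure D3:**
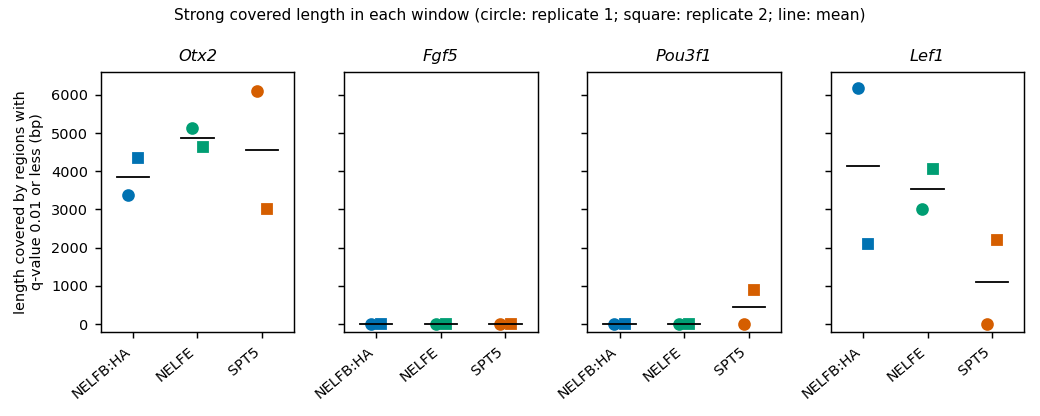
Base pairs of each gene window covered by regions with a q-value of 0.01 or less (vertical axis, bp), by antibody; circles are replicate 1, squares replicate 2 and lines the mean of the 2 libraries. Otx2 is covered in all 6 libraries (3014 to 6097 bp), Lef1 in 5, Pou3f1 in 1 and Fgf5 in none.

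With 2 libraries against 2, a two-sided exact permutation test cannot fall below 0.33, so no difference here could pass a threshold of 0.05. NELFB:HA minus NELFE at Otx2 was −1017.5 bp, with a pooled SD of 546.1 bp, and so exceeded the spread (adjusted p = 1 over 8 tests, from an exact permutation p of 0.33). It ran from −1752 to −283 bp by replicate number and turned to 1113 bp when the 10000 regions of highest −log10 p of each list were used in place of the q-value. NELFE minus SPT5 at Lef1 was 2441.5 bp, against a spread of 1218 bp, with the same exact permutation p and adjusted p. It turned to −1004.5 bp with those 10000 regions and to −7380 bp with all regions. NELFB:HA minus SPT5 at Lef1 was 3039 bp against a spread of 2315 bp, with libraries that overlapped (adjusted p = 1, from an exact permutation p of 0.667), and it was 6176 bp and −98 bp for replicate numbers 1 and 2 alone. The other 5 tested differences were no larger than their pooled SD. Over the whole genome, strong regions covered 22.17 to 29.46 Mb in the 6 lists.

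The length of the leading region by pileup was greater in both SPT5 lists than in any NELF list at Otx2, where the leading region was the site past the gene end in both SPT5 lists and the internal start in all 4 NELF lists. It was 4256 ± 1756 bp in SPT5 (SD, n = 2), 1210 ± 520.4 bp in NELFB:HA and 1428.5 ± 798.3 bp in NELFE. NELFB:HA minus SPT5 was −3046 bp (pooled SD 1295 bp) and NELFE minus SPT5 was −2827.5 bp (pooled SD 1364 bp), each with an exact permutation p of 0.33 (adjusted p = 0.667 over 10 tests). At Pou3f1 the leading region was longer in NELFE, at 2139 ± 149.9 bp (SD, n = 2), than in SPT5, at 1119 ± 314 bp. That difference was 1020 bp against a spread of 246 bp (adjusted p = 0.667, from an exact permutation p of 0.33). With the leading region chosen by fold or by −log10 p, the internal Otx2 start led in the first SPT5 list. The Otx2 differences were then −1041 bp for NELFB:HA (pooled SD 847.1 bp) and −822.5 bp for NELFE (pooled SD 949.1 bp), each with an exact permutation p of 0.667, so the separation rests on ranking by pileup. Of the 10 differences tested with that ranking, 6 exceeded the pooled SD, and none could pass a threshold of 0.05. Among the 6, NELFB:HA minus NELFE at Fgf5 was 740.5 bp, and 257 bp under the stricter overlap. NELFB:HA minus SPT5 at Lef1 was 1145 bp. At both genes the leading regions lay at different places, so their lengths do not measure the extent of 1 site. No region of the second SPT5 list lay in the Fgf5 window, so Fgf5 lengths were compared for NELFB:HA and NELFE alone.

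The leading pileup of each gene was placed among the 21883 coding genes with 5 kb margins. Otx2 exceeded 58.4% to 67.4% of them over the 6 libraries, Lef1 56.5% to 69.1%, Pou3f1 39.9% to 57.9% and Fgf5 0% to 43.3%. None of the 4 was thus among the most occupied genes. Longer genes have more chances to hold a high region, so tiles of the same length were also counted. The tiles run end to end over the chromosomes and need not hold a gene. They match a window in length alone and are not a background of genes of that length. A strong region in all 6 libraries occurred in 5.21% of tiles as long as the Otx2 window, and 88.2% held one in no library. Of tiles as long as the Fgf5 window 7.16% held a strong region in all 6 libraries and 85.0% in none, so a window of this size without a strong region is the usual case genome-wide. Of tiles as long as the Pou3f1 window 3.38% held a strong region in all 6 libraries and 91.6% in none, and of those as long as the Lef1 window 20.1% and 65.8%.

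Other genes linked to the formative and early post-implantation state were counted in the same way, from a list of 19. A strong region in all 6 libraries was held by 5 of them, against 33.5% of coding genes, and in none by 5, against 44.6%. The median number of libraries with a strong region was 4 for the list and 2 for all coding genes. Both NELFB:HA libraries had one at 11 of 19 genes, both NELFE libraries at 13 and both SPT5 libraries at 6, where the shares over coding genes were 41.5%, 48.3% and 35.8%. Of the 4 genes described above, the counts were 2, 2 and 1. A window can hold a neighbour's region, as the one before Lef1 shows.

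The 5 genes strong throughout were Utf1, Etv5, Tcf15, Lin28b and Tcf7l1. Etv5, an ETS factor downstream of FGF signalling, had folds of 3.29 to 8.55 over the libraries, and Tcf15, a helix-loop-helix factor, 4.25 to 11.1. Utf1, a chromatin factor of pluripotent cells, had 2.54 to 6.58. Library by library, Etv5 and Tcf15 lay above the strongest Otx2 region in 6 of 6 and Utf1 in 5 of 6. The 5 genes with no strong region were Foxd3, Zic2, Fgf15, Cdh2 and Tcf7. Foxd3, a forkhead factor, had folds of 1.64 to 2.29 over 6 libraries. Fgf5 had 1.80 to 2.16 over 5, with no region in the second SPT5 list, where Foxd3 had its 1.64.

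Lef1 was strong in both libraries of each NELF antibody but not in both of SPT5, and 6 of the 19 listed genes shared this. The share over coding genes was 7.40%. Among the 6 listed genes, Dnmt3b, a de novo DNA methyltransferase, had folds of 2.83 to 3.39 in the NELF libraries and 2.02 and 1.87 in SPT5. Zfp281, a zinc finger factor, had 2.66 to 3.65 and then 2.15 and 2.00. Dnmt3b, Zfp281, Sox3 and Grhl2 held no strong region in either SPT5 library. Dnmt3l and Etv4 held one in the second SPT5 library, as Lef1 did, with highest −log10 q-values of 2.14 and 4.12 there. The pattern is therefore not an absence of SPT5. SPT5 folds were lower over the whole lists as well. The median fold of strong regions was 3.11 and 2.89 in SPT5, against 3.61 to 4.7 in the NELF lists. The SPT5 libraries also differed in read length, input and the wt of their headers. The part of these in the pattern cannot be told apart from the antibody.

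Strong regions near annotated starts were counted separately. Of the 12 listed genes with an annotated start among the sequences, 3 (Utf1, Etv5 and Tcf7l1) held a strong region within 1 kb of a start in all 6 libraries, against 29.4% of coding genes, and 3 held one in none, against 51.1%. Of the 4 genes, Otx2 did so in 5 libraries, Lef1 in 4, Pou3f1 in 1 and Fgf5 in 0. In both libraries of an antibody, Otx2 and Lef1 had a strong region near a start with NELFB:HA and with NELFE, where 36.6% and 42.9% of coding genes did. With SPT5, where 31.3% did, none of the 4 had one in both libraries.

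Relatives of the 4 genes were also examined. Pou3f2, Pou3f3 and Pou3f4, the other class III POU genes, and Otx1 held no strong region in any library. Fgf4, a growth factor made by embryonic stem cells themselves, held strong regions in all 6 libraries with folds of 3.41 to 14.7, whereas Fgf5 reached 2.16. Of the other TCF and LEF genes, Tcf7l1 was strong in 6 libraries, Tcf7l2 in 5 and Tcf7 in 0. Over all coding genes, 33.5% held a strong region in all 6 libraries and 44.6% in none, so either outcome is common for a single gene.

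**Figure D4:**
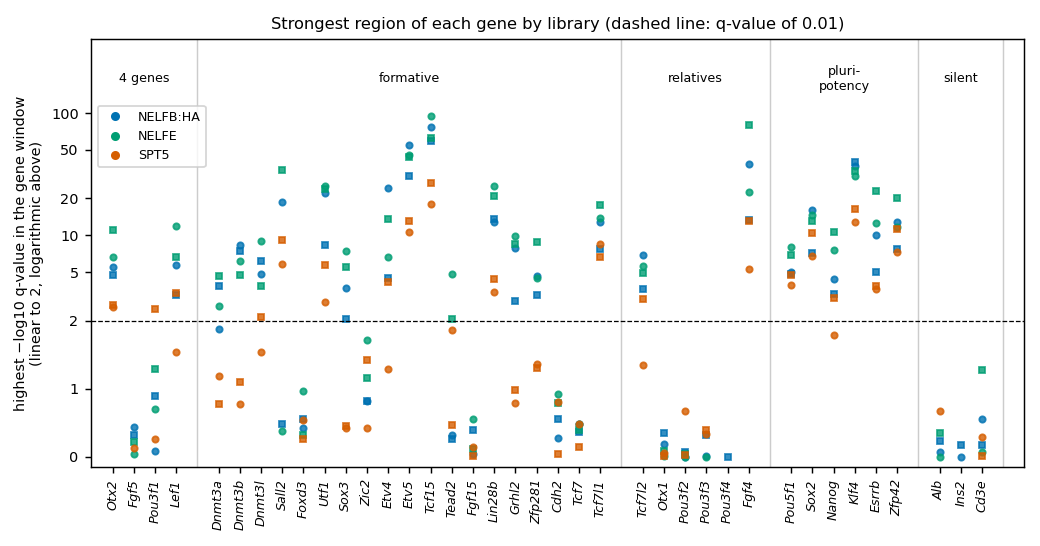
Highest −log10 q-value among the regions of each gene window (vertical axis, linear to 2 and logarithmic above), 1 point per library (circles replicate 1, squares replicate 2), for the 4 genes, 19 formative genes, 6 relatives, 6 pluripotency genes and 3 genes of other tissues; the dashed line is a q-value of 0.01. Otx2 is above the line in 6 libraries, Lef1 in 5, Pou3f1 in 1 and Fgf5 in 0.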

How the data were processed

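Peak calling was done by the authors, who ran MACS 2.1.1.20160309 in broad mode on every ChIP library separately, with an input as control, p-value cutoffs of 0.01 for strong and 0.1 for weak regions, and no pooled replicates, as the headers of the deposited files state. The submitters' processing notes list Bowtie2, deepTools and the mm10 build without giving their roles. The pileup is a coverage signal, deposited after scaling the larger data set to the smaller. The fold enrichment is deposited as a ratio to the local background. Values of −log10 p are deposited as averages across a region, and so are those of −log10 q. A header line states that q was left out, yet that column is filled with values at or above 0, which serve here as q. All of these depend on depth. The headers name 5 inputs, of which the SPT5 libraries share 1, where the labels list 1 control input, so which sample each fold is relative to could not be worked out. They also call the SPT5 libraries wt, where the labels give the genotype Nelfb deg.

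Regions were assigned to a window on sharing at least 1 bp. Genes and starts came from RefSeq on GRCm38.p6, the assembly behind mm10. Promoter sequences matched 3 of the 4 genes, and 25 of the 34 listed genes had a start. The start of Pou3f1 was taken as the lower end of the gene. The 4 genes, the gene lists and the tests were chosen with earlier results of these data known. All 4 genes are named, and other genes come from lists of 19 formative genes, 6 relatives, 6 pluripotency genes and 3 genes of other tissues, those given with values being examples chosen after their values were seen. A further listed gene is not reported here. Ranks by pileup are within a list. Means were compared with a two-sided exact permutation test and Benjamini-Hochberg adjustment. Alternatives were other q-value thresholds, the 10000 regions of highest −log10 p, all regions, a stricter overlap, other rankings, each replicate left out and a replicate block. Python 3.11.15, pandas 2.3.3 and NumPy 2.4.6 were used, and the functions were tested on simulated regions.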

Additional observations from a re-analysis of the deposited data

How the results depend on the processing

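Of 194 alternatives over 49 results, 15 reversed a difference. The 194 include ranks, library counts and tile shares, which have no sign to reverse, and replicate blocks, which leave a mean unchanged. In covered length, 12 reversed, 11 moved without a reversal and 41 were counted as the same. In the length of the leading region these counts were 3, 11 and 46. Of the 15 reversals, 8 came from other thresholds or region sets, all in strong covered length. The other 7 came from leaving out a replicate, 4 in covered length and 3 in the length of the leading region. No difference could pass a threshold in a design whose smallest p is 0.33. The q-value threshold mattered most for the counts of libraries with a strong region. At 1e-05 or less Otx2 had 3, Lef1 3 and Pou3f1 0 of 6. At 0.05 or less Lef1 had 6, and with all regions Pou3f1 had 6 and Fgf5 5. At Otx2, covered length of NELFB:HA minus NELFE reversed to 1113 bp among the 10000 regions of highest −log10 p. NELFB:HA minus SPT5 reversed to 421 bp at 1e-05, and NELFE minus SPT5 to −371.5 bp at 0.05 and −2502 bp among the 10000. At Pou3f1, NELFE minus SPT5 reversed to 821.5 bp with all regions, and both differences from SPT5 were 0 bp at 1e-05. At Lef1, NELFB:HA minus NELFE reversed to −721 bp at 1e-05, and NELFE minus SPT5 to −7380 bp with all regions and −1004.5 bp among the 10000. The cause of these reversals was not tested.

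With 1 replicate number omitted at a time, covered-length differences at Otx2 were −1752 to −283 bp (NELFB:HA minus NELFE), −2724 to 1332 bp (NELFB:HA minus SPT5) and −972 to 1615 bp (NELFE minus SPT5), and at Lef1 −1962 to 3157, −98 to 6176 and 1864 to 3019 bp in the same order. At Pou3f1 both differences from SPT5 ran from −897 to 0 bp. For the leading region the ranges against SPT5 were −4656 to −1436 (NELFB:HA) and −4634 to −1021 bp (NELFE) at Otx2, −375 to 918 and 692 to 1348 bp at Pou3f1, and −98 to 2388 and −531 to 2357 bp at Lef1. NELFB:HA minus NELFE ran from 246 to 1235 bp at Fgf5. A replicate block leaves a difference of means unchanged, as at Otx2 (−1017.5 bp, SD of same-numbered differences 1039 bp), and no difference was past a threshold with it or without it. Same-numbered libraries did not deviate together (correlations −0.0329 to −0.0217 over 6081 regions). Numbers come from the titles. In the headers the NELF libraries carry 2 and 3 in place of 1 and 2, so a number may not mean the same thing for NELF and SPT5.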
